A study of Arabidopsis thaliana with 4 samples.

Results

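Transcripts of the enzymes that build wall polysaccharides, and of the arabinogalactan proteins that are secreted among them, were examined in auxin-treated seedlings of *Arabidopsis thaliana*. Members were taken by name alone. They were the genes whose symbol was CESA, CSLA to CSLG, GAUT, GATL, PME, TBL, AGP or FLA followed by a number, and 49 genes were found among 22746 probe sets that are not controls. Every one was read by 1 probe set. The treated group was wild-type Columbia (Col-0) seedlings, grown for 5 days in the light and then given the auxin IAA (indole-3-acetic acid) at 10 µM in water for 2 h (2 arrays). It was compared with seedlings of the same age and genotype kept for the same time in water alone (mock; 2 arrays). RNA came from whole seedlings, so a smaller number of cells of one type and less RNA per cell cannot be told apart.

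The plant primary wall is a network of cellulose fibers tied together by hemicelluloses, chiefly xyloglucan, and embedded in pectin. Cellulose is made at the plasma membrane by complexes of cellulose synthases (CESA). The cellulose synthase-like (CSL) enzymes are their relatives, and several of them make hemicellulose backbones in the Golgi. Galacturonosyltransferases (GAUT) and their relatives (GATL) act on pectin and xylan, pectin methylesterases (PME) trim pectin in the wall, and TRICHOME BIREFRINGENCE-LIKE (TBL) proteins include enzymes that acetylate wall polymers. Arabinogalactan proteins (AGP) and the fasciclin-like arabinogalactan proteins (FLA) are heavily glycosylated proteins of the cell surface. Auxin is known for its promotion of cell elongation, during which new wall material is deposited.

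Most of these genes were not called between the treatments, and 4 passed. *AGP18*, *CSLC04* and *AGP15* rose 2.09-fold, 2.03-fold and 1.67-fold after IAA, and *AGP3* fell 1.71-fold. A call required both an adjusted p under 0.10 in limma and positive log odds of differential expression (B above 0), which is the rule of the study's methods. The 3 increases made up 6.12% of the 49 genes, where 1.48% of all probe sets were called higher, and the 1 decrease made up 2.04%, where 0.374% were called lower. The median log2 change was 0.052 over the 49 genes and -0.015 over all probe sets, with 25 genes above 0 and 24 below. Without the rule on B, 4 genes were higher (8.16%) and 3 lower (6.12%), against 3.87% and 2.26% of all probe sets. At an unadjusted p under 0.05 in limma, 11 genes were higher (22.4%) and 7 lower (14.3%), against 10.1% and 10.6% of all probe sets.

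These shares depend on how a gene could be named. The platform's annotation named 31 of the 49 genes, 22 of them TBL genes. Of the 31, 1 was called higher (3.23%) and 0 lower by limma, where 1.2% of all probe sets named that way were called higher and 0.303% lower. By an unadjusted limma p below 0.05, 5 of the 31 were higher and 4 lower. A further 17 genes, among them both CESA, all FLA and 6 of the AGP genes, could be named only because they stood in the study's lists of transcripts that respond to brassinosteroid (BR), a second growth-promoting hormone. Those lists came from other arrays but were chosen for a hormone response. Of the 17 genes 2 were called higher (11.8%) and 0 lower by limma, with 6 higher (35.3%) and 2 lower (11.8%) at an unadjusted p below 0.05. Among all 335 probe sets named in that way 18.5% were called higher and 0.896% lower, and 42.4% were higher and 11.3% lower at the unadjusted p, so the 17 genes did not exceed that background in the share higher. The remaining gene, *AGP3*, was named through the study's list of transcripts lowered by IAA. That list was chosen on these same 4 arrays, so the fall of *AGP3* is not independent evidence.

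**Figure D1:**
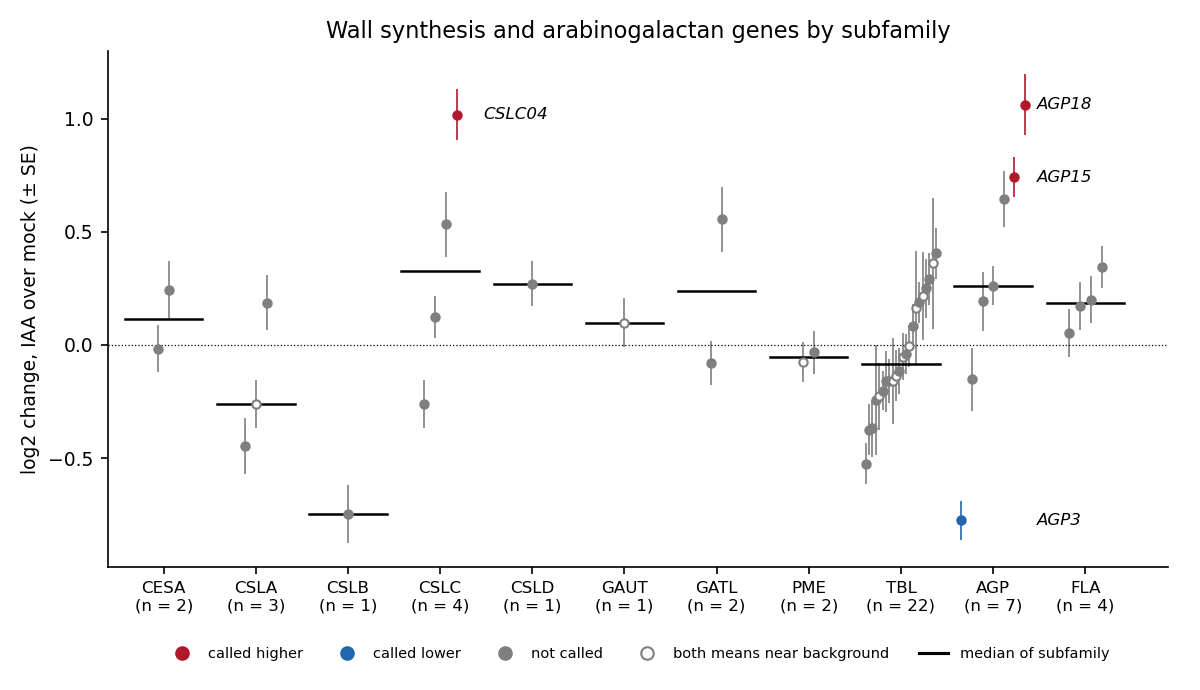
Log2 change (IAA over mock, limma estimate ± SE) of each of the 49 genes, grouped by subfamily on the horizontal axis, with a black line at the subfamily's median. Colored points are the 4 genes called, open points are genes whose group means both lie near background. *AGP18* (1.06) and *AGP15* (0.74) lie highest among the AGP genes, *CSLC04* (1.02) lies highest among the CSLC genes, and *AGP3* (-0.78) lies lowest of all 49, while the 22 TBL genes lie on both sides of 0.

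The arrays agreed closely within each group. Array medians ranged over 62.2 to 63.5, but the authors' normalization brings them close, so they do not measure agreement. The log2 values correlated across probe sets (which are no replicates of each other) with r = 0.994 between the IAA arrays, 0.997 between the mock arrays and at most 0.988 between the groups. With 2 arrays per group, their number limits the precision. Standard errors of the 49 log2 changes ran from 0.086 to 0.29. A value at or below 37.6, the highest reading of 27 control probe sets for *Bacillus* genes, is called near background here. It is a cautious limit, since 1 control set it and no other read above 19.2. By this limit 36 of the 49 genes were above background in both groups, 2 in one group only and 11 in neither. All 4 genes called were among the 36.

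The AGP genes held called changes of both signs. Of 7 measured, 2 rose (28.6%), 1 fell (14.3%) and 4 were not called, and their median log2 change was 0.26. The BR lists named 6 of the 7. Among all probe sets named in that way 18.5% were called higher and 0.896% lower, and the median was 0.18. The 1 that fell, *AGP3*, was named through the auxin list chosen on these arrays, so its call is not independent evidence. *AGP18* (AT4G37450) encodes a lysine-rich member of the family. Its values were 354 and 395 on the IAA arrays, against 161 and 199 on the mock arrays, so that the groups were well apart. IAA over mock was 1.06 ± 0.13 on the log2 scale (SE; limma 95% interval 0.73 to 1.40, adjusted p = 0.0218). *AGP15* (AT5G11740) encodes an arabinogalactan peptide, a short member of the family, and read 4186 and 4363 after IAA, against 2593 and 2518 in mock. Its replicates differed far less than its groups, with means of 4275 ± 126 and 2555 ± 53.1 (SD, n = 2 each), a difference of 0.74 ± 0.088 on the log2 scale (SE; limma adjusted p = 0.0182).

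*AGP3* (AT4G40090), a gene for a classical arabinogalactan protein, went the other way. It read 130 and 134 on the IAA arrays, against 227 and 225 on the mock arrays, which is -0.78 ± 0.087 on the log2 scale (SE; limma adjusted p = 0.0149). The 2 replicates of each group nearly coincided. Some genes that mark root and root hair cells were also called lower in the same arrays. Of 6 root hair markers listed 3 were measured and 2 of them were called lower (66.7%, against 0.374% of all probe sets). The summed values of the 3 were 458 to 473 after IAA, against 739 to 804 in mock. Both genes called (*PRP3* and *SHV2*) were named through the auxin list, chosen on these same arrays, so their fall is not independent evidence. *EXPA7*, named by the platform, was not called (log2 change -0.40, limma adjusted p = 0.0922). Of 5 root markers 3 were measured and 2 called lower (66.7%, against 0.374% of all probe sets). The sums of the 3 were 2690 to 3118 after IAA, against 3205 to 3817 in mock. Of the 2 called, *TIP2;3* was named through the same auxin list, so its fall is not independent either, and *CASP5* through a BR list. *PYK10*, an abundant root glucosidase gene named by the platform, read 2707 and 2325 after IAA, against 2407 and 2943 in mock. Its groups overlapped and it was not called (log2 change -0.085), although it made up most of each root sum above. The part of these tissues in the *AGP3* result was not tested.

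*AGP9* came close to a call. It encodes a classical arabinogalactan protein and read 1718 and 1601 after IAA, against 959 and 1173 in mock. The arrays of the groups did not overlap, but B was -1.52 (log2 change 0.64 ± 0.13 SE, limma adjusted p = 0.0659). *AGP4*, another classical gene, had 1075 and 1054 after IAA, against 871 and 904 in mock, a log2 change of 0.26 that was not called (limma adjusted p = 0.181). *AGP17*, which encodes a lysine-rich protein like that of *AGP18*, read 467 and 492 after IAA, against 470 and 375 in mock. Its groups overlapped, and its limma 95% interval (-0.13 to 0.52) ended below that of *AGP18* (0.73 to 1.40). *AGP7* read 816 and 946 after IAA, against 1087 and 877 in mock, and its groups overlapped as well. The responses of different AGP genes were not tested against each other. Counting arrays alone, IAA was above mock without overlap in 4 of the 7 genes (57.1%) and below in 1 (14.3%), against 24.5% and 29% of all probe sets and 52.2% and 22.1% of those named through the BR lists, as 6 of the 7 were.

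**Figure D2:**
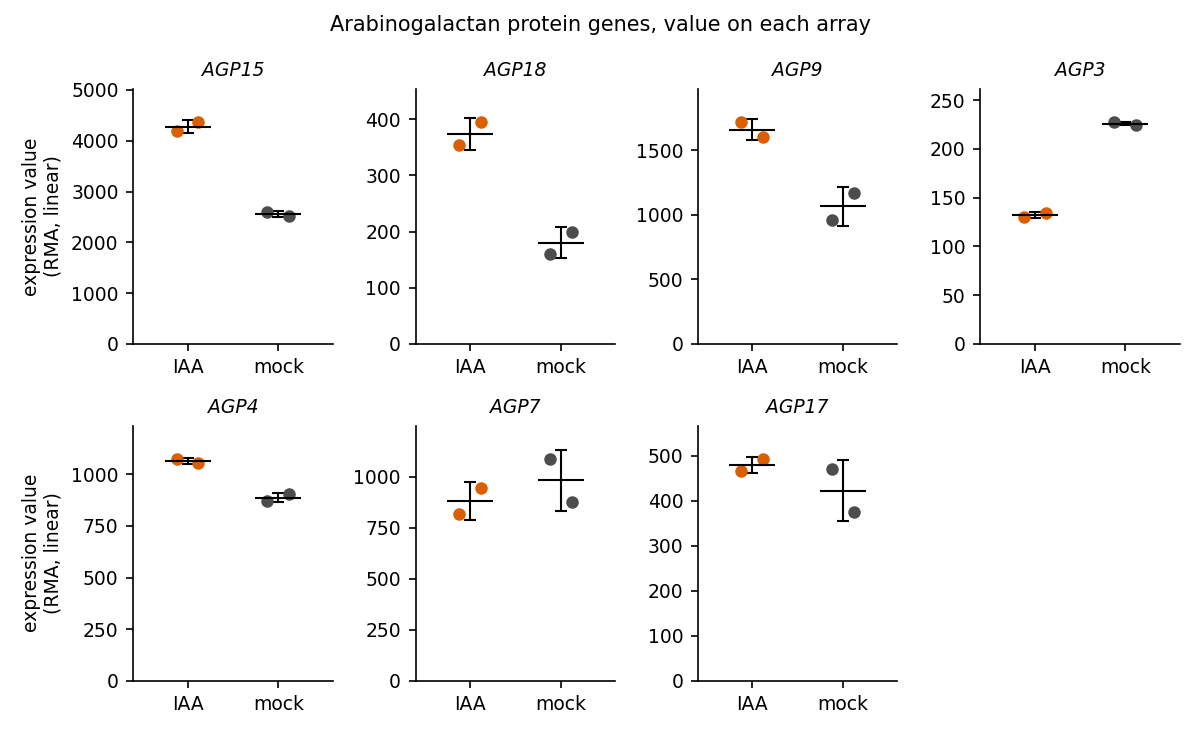
Expression value (RMA, linear scale from 0) of the 7 AGP genes on each array, with IAA on the left and mock on the right of every panel. Points are arrays, horizontal lines the mean and bars the SD (n = 2). The groups are separated in *AGP15*, *AGP18*, *AGP9*, *AGP4* and *AGP3*, the last with the IAA arrays (130 and 134) below the mock arrays, and overlap in *AGP7* and *AGP17*.

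The fasciclin-like relatives showed small differences. All 4 FLA genes had log2 changes above 0, from 0.052 to 0.34 with a median of 0.19, and 0 were called by limma, 1 (25%) having an unadjusted p below 0.05. All 4 were named through the BR lists. Among all probe sets named in that way the median was 0.18, close to that of the FLA genes, and 66.9% lay above 0. Of those probe sets 18.5% were called higher, and 42.4% were higher at the unadjusted p. *FLA9*, whose product like others of this family combines arabinogalactan sequences with a fasciclin adhesion domain, read 2877 and 2923 after IAA, against 2202 and 2369 in mock. Its groups did not overlap, with 0.34 ± 0.091 (SE) for the log2 change and an adjusted p of 0.123 in limma. *FLA2* read 2339 and 2235 after IAA, against 2123 and 1864 in mock, a log2 change of 0.20. *FLA16* had a log2 change of 0.17 and *FLA18* one of 0.052, and in *FLA18* the arrays of the groups overlapped. The limma 95% interval of *FLA18* ran from -0.21 to 0.31.

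Among the glycan synthases the clearest change was that of 1 gene, *CSLC04*, of the CSLC subfamily, whose enzymes make the glucan backbone of xyloglucan. Of the 4 CSLC genes, all named from the platform, *CSLC04* rose (25%) and 3 were not called. Among all probe sets named that way 1.2% were called higher. *CSLC04* (AT3G28180) read 747 and 857 on the IAA arrays, against 415 and 376 on the mock arrays, and its groups lay far apart. The means were 802 ± 78.1 after IAA and 395 ± 27.0 in mock (SD, n = 2 each), or 1.02 ± 0.11 on the log2 scale (SE; limma 95% interval 0.74 to 1.30, adjusted p = 0.0142). *CSLC5* read 208 and 268 after IAA, against 157 and 169 in mock, which is 0.53 ± 0.14 on the log2 scale (SE; limma adjusted p = 0.127). Its groups did not overlap, but the IAA arrays differed among themselves. *CSLC6* read 135 and 129 after IAA, against 125 and 117 in mock, a log2 change of 0.12 whose limma 95% interval (-0.10 to 0.35) ended below that of *CSLC04*. *CSLC12* went the other way, at 30.8 and 35.5 after IAA, against 39.6 and 39.7 in mock, with the IAA mean near background. Its groups did not overlap, but its log2 change of -0.26 was not called (limma adjusted p = 0.239, unadjusted p = 0.0488). Another gene of the subfamily, filed as *ATCSLC08* and so not among the 49, had overlapping groups, with a log2 change of -0.10. Differences in response between the CSLC genes were not tested.

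Cellulose synthases themselves were not called. *CESA6*, a subunit of the complex that makes primary wall cellulose, read 1460 and 1635 after IAA, against 1438 and 1187 in mock. The groups did not overlap, but the lowest IAA array stood only just above the highest mock array, and the log2 change was 0.24 (limma 95% interval -0.075 to 0.56, adjusted p = 0.342). *CESA5*, a close relative of *CESA6* that also acts in seed coat mucilage, read 399 and 373 after IAA, against 415 and 367 in mock. Its groups overlapped, with a log2 change of -0.016 and a limma 95% interval of -0.27 to 0.24. No other CESA gene had a probe set named to it here.

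The remaining CSL subfamilies held 5 genes, and 0 of them were called by limma. At an unadjusted p under 0.05 in limma 1 was higher and 2 lower, where 10.1% and 10.6% of all probe sets were. *CSLB04*, a gene of a subfamily whose product is not well known, was the lowest of the 5 genes. It read 195 and 218 after IAA, against 381 and 315 in mock, and its groups did not overlap. The log2 change was -0.75 ± 0.13 (SE) with an adjusted p of 0.0501 in limma, but B was -0.84 and the rule was missed. The suffix of its probe set marks probes that match several similar genes, so the reading may mix their transcripts. A second gene of that subfamily, filed as *ATCSLB05*, read 30.3 and 46.1 after IAA, against 56.7 and 53.2 in mock (log2 change -0.56 ± 0.20 SE, limma adjusted p = 0.21, not called). *CSLD2*, which is needed for normal root hairs, read 403 and 438 after IAA, against 334 and 364 in mock. Its log2 change was 0.27 and was not called (limma adjusted p = 0.211). The CSLA subfamily includes glucomannan synthases. *CSLA03* read 311 and 381 after IAA, against 298 and 308 in mock (log2 change 0.19), *CSLA14* had an IAA mean near background (28.4, against 38.9 in mock), and *CSLA01* was near background in both groups.

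Genes that work beside these enzymes were read from lists of 140 symbols, of which 19 had a named probe set. In limma 2 of the 19 were called higher (10.5%) and 0 lower, while 8 higher (42.1%) and 0 lower had an unadjusted p under 0.05. Of the 19, 10 were named through the BR lists, where 18.5% of all probe sets were called higher and 42.4% were higher at the unadjusted p. Only 8 were named from the platform, and 0 of those were called by limma. Of 6 hemicellulose synthesis genes 1 rose (16.7%, against 1.48% of all probe sets and 18.5% of those named through the BR lists). It was *XLT2* (filed as *GT18* and named through a BR list), whose enzyme adds galactose to the side chains of xyloglucan, at 101 and 97.2 after IAA, against 57.3 and 57.3 in mock (log2 change 0.79 ± 0.086 SE, limma adjusted p = 0.0142). *XXT1* (filed as *XT1*), whose enzyme adds xylose to the same backbone, had 601 and 693 after IAA, against 439 and 339 in mock. Its groups did not overlap and its log2 change was 0.74 ± 0.15 (SE), but it was not called (limma adjusted p = 0.074, B = -1.81). In the same list *IRX10* (filed as *GUT2*), *IRX15* and *IRX15-L* had log2 changes of -0.082, -0.0053 and -0.24 and were not called. *IRX15* was near background in both groups and *IRX15-L* after IAA. *F8H*, another gene of that list, went the other way and read 96.9 and 92.3 after IAA, against 70.9 and 70.1 in mock. Its groups did not overlap, but its log2 change of 0.42 was not called (limma adjusted p = 0.0762). The 3 genes of this list with changes above 0 (*XLT2*, *XXT1* and *F8H*) were all named through BR lists. The 3 with changes below 0 were all named by the platform, so the contrast between them cannot be told apart from the naming.

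Of 5 genes that supply sugar nucleotides 1 rose (20%, against 1.48% of all probe sets). *UGD2* makes UDP-glucuronic acid, a precursor of the xylose and pectin sugars of the wall, and read 979 and 934 after IAA, against 416 and 509 in mock (log2 change 1.06 ± 0.12 SE, limma adjusted p = 0.0173). It was named through the study's auxin list, which was chosen on these arrays, so its rise is not independent evidence. Of 4 pectin genes and 3 cellulose synthesis partners 0 were called by limma. At an unadjusted p under 0.05 in limma 2 of the first were higher and 0 lower, and 1 of the second was higher and 0 lower. Of all probe sets 10.1% were higher and 10.6% lower at that p. The 4 pectin genes were all named through the BR lists, where 42.4% were higher. *COB*, which guides oriented cellulose deposition, was level at 2254 and 2267 after IAA, against 2248 and 2262 in mock. The pectin acetylesterase gene *PAE8* (AT4G19420) had a log2 change of 0.45, *SHV3* one of 0.36, and *GALT29A* (AT1G08280), the 1 gene measured of those that glycosylate arabinogalactan proteins, one of 0.33. Their adjusted p-values in limma were 0.214, 0.129 and 0.405.

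**Figure D3:**
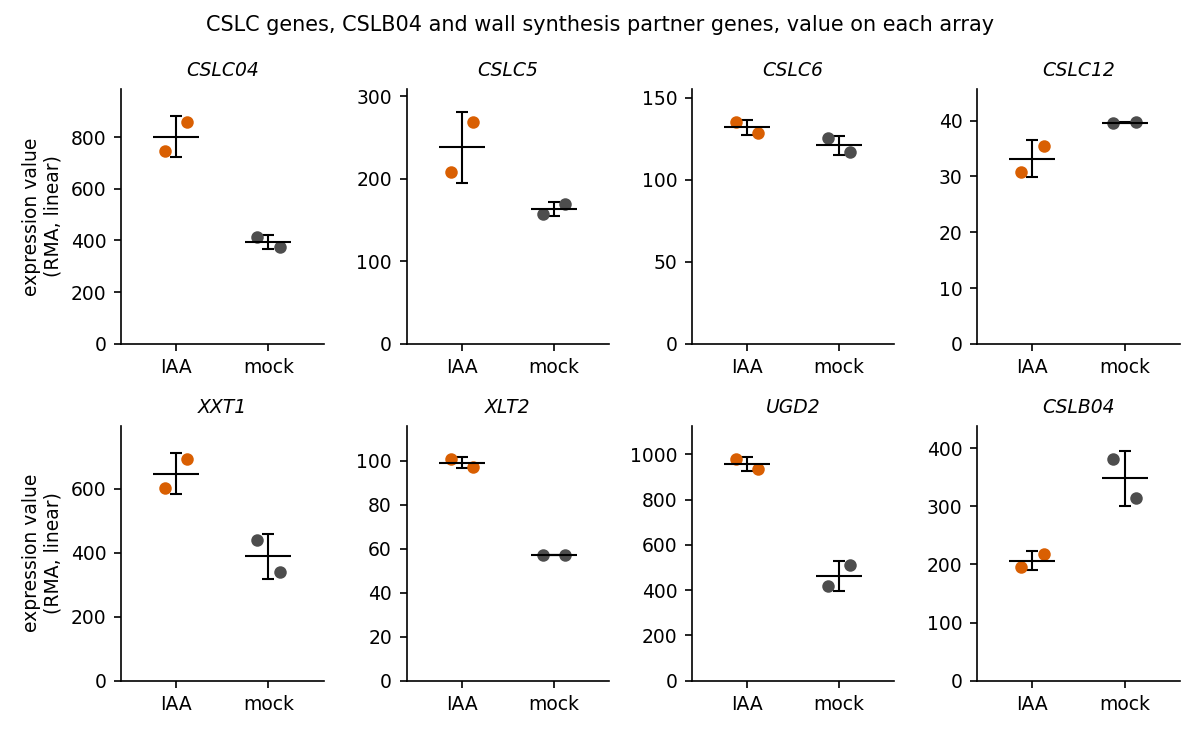
Expression value (RMA, linear scale from 0) on each array for the 4 CSLC genes, *XXT1*, *XLT2*, *UGD2* and *CSLB04*, with IAA left of mock. Points are arrays, horizontal lines the mean and bars the SD (n = 2). *CSLC04*, *XLT2* and *UGD2* were called higher, and *CSLB04* (195 and 218 after IAA) lies below its mock arrays without a call.

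Genes of pectin synthesis and pectin modification were few, and 0 of 5 were called by limma. At an unadjusted p under 0.05 in limma 1 was higher and 0 lower, where 10.1% and 10.6% of all probe sets were. *GATL10*, annotated as galacturonosyltransferase-like and also as a galactinol synthase, read 65.2 and 84.4 after IAA, against 48.9 and 52.1 in mock. The log2 difference of 0.55 ± 0.14 (SE) had an adjusted p of 0.118 in limma, with the groups apart but the IAA arrays unequal. *GATL6* read 453 and 466 after IAA, against 511 and 462 in mock, a log2 change of -0.079. *GAUT15* and *PME61* were near background in both groups. *PME1* (AT4G12390) carries the symbol of an esterase but is annotated as a pectin methylesterase inhibitor, and its values of 349 and 327 after IAA, against 332 and 360 in mock, overlapped.

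The TBL genes were the most numerous. Of 22 genes 0 were called by limma, while 2 higher and 3 lower (9.09% and 13.6%) had an unadjusted p under 0.05. All 22 were named by the platform. Among all probe sets named that way 1.2% were called higher and 0.303% lower, with 9.46% and 10.4% at the unadjusted p. Their median log2 change was -0.084, with 14 genes below 0 and 8 above. In 8 of the 22 both group means were near background, and among the other 14 the median was -0.14, with 9 below 0. Among all probe sets 53.3% lay below 0, and 50.7% among those above background in both groups. The groups did not overlap in 5 TBL genes with the IAA arrays above and in 5 with them below, which is 22.7% each, against 24.5% and 29% of all probe sets.

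Of 5 TBL genes that act in xylan acetylation, 4 were above background and had values below 0. *TBL28*, *TBL30*, *TBL34* and *TBL35* had log2 changes of -0.16, -0.12, -0.37 and -0.042, and none of these 4 was called by limma, with an unadjusted p below 0.05 in *TBL34* alone. *TBL32* (log2 change 0.22) was near background and is read by a shared probe set. *TBL23*, *TBL25* and *TBL26* belong to a group of mannan acetyltransferases, and their log2 changes were 0.25, -0.53 and -0.14. *TBL25* was the TBL gene nearest to a call, with 256 and 271 after IAA, against 373 and 386 in mock. Its groups were clearly apart and its adjusted p was 0.0498 in limma, but B was -0.83. *TBL26* was near background in both groups, and *TBL23* read 124 and 156 after IAA, against 118 and 115 in mock. The highest change above background was that of *TBL45*, at 749 and 699 after IAA, against 504 and 593 in mock (log2 change 0.40 ± 0.11 SE, limma adjusted p = 0.139). *TBL39* had 127 and 118 after IAA, against 147 and 171 in mock (log2 change -0.37, not called). *TBL43* read 33.0 on 1 IAA array and 17.3 on the other, against 19.0 and 18.2 in mock, all near background.

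**Figure D4:**
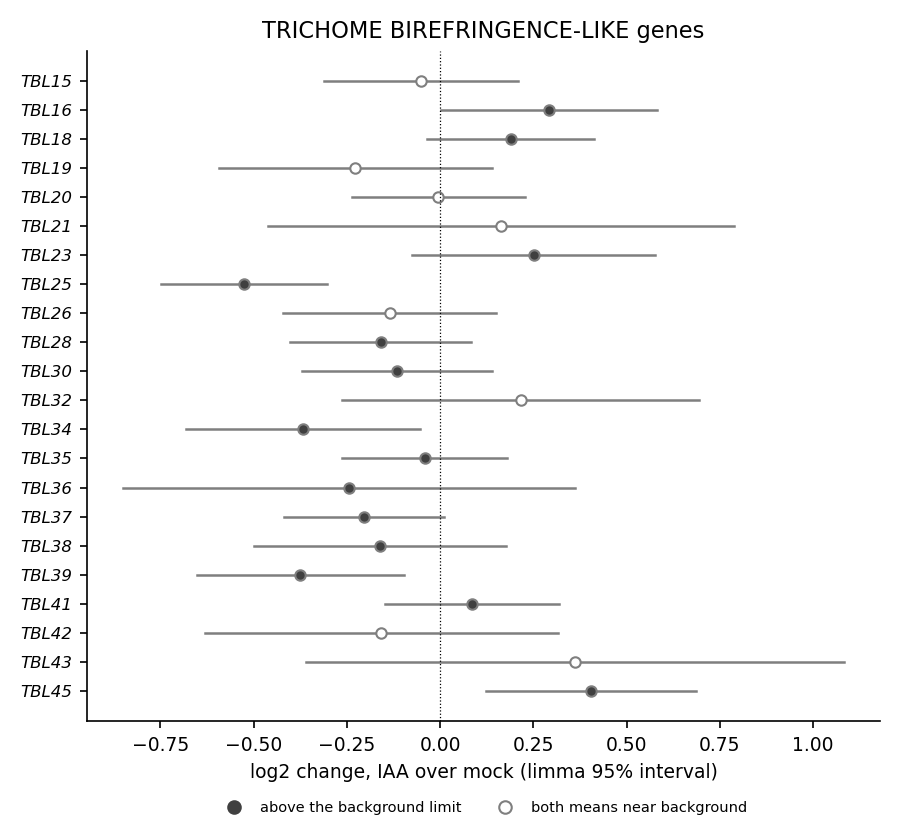
Log2 change (IAA over mock) of the 22 TBL genes with limma 95% intervals, in order of gene number down the page. Filled points have at least 1 group mean above the background limit of 37.6 and open points have both below it. No TBL gene was called; *TBL25* lies lowest (-0.53) and *TBL45* (0.40) is the highest among the filled points.

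The 49 genes lie on all 5 chromosomes. By the order of genes in RefSeq (assembly TAIR10.1), 2 pairs of the 49 genes are direct neighbors. *TBL28* and *TBL30* had log2 changes of -0.16 and -0.12, and *TBL21* and *TBL19*, both near background, of 0.16 and -0.23. A further 6 genes belong to the same families under another symbol, and 0 of these were called by limma. At an unadjusted p under 0.05 in limma 1 was higher and 2 lower (16.7% and 33.3%), where 10.1% and 10.6% of all probe sets were. One of the 6, AT2G31110 (also *TBL40*), was read by 2 probe sets, with log2 changes of -0.41 and -0.45. *LGT9* (also *GATL8*) read 645 and 715 after IAA, against 544 and 575 in mock.

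The touch and handling genes measured were higher in the same arrays. Of 7 listed 5 were measured and 4 called higher (80%, against 1.48% of all probe sets). Summed values of the 5 were 5098 to 5648 after IAA, against 2953 to 3182 in mock, and *TCH4* made up most of each sum. Of the 4, *ERF6* and *WRKY33* were named through the auxin list chosen on these arrays, so their rise is not independent evidence. *TCH4* and *TCH2* were named through BR lists, where 18.5% of all probe sets were called higher. *CML38*, the 1 gene named by the platform, was not called (log2 change 0.57, limma adjusted p = 0.133). Both groups were treated in water, and the part of handling in the increases was not tested. The calls among the 49 genes depended on single arrays. The groups of the 4 genes called did not overlap, so leaving out 1 array could not reverse a sign. Without mock replicate 1 limma called 0 of the 49 genes (6 higher and 5 lower at an unadjusted p under 0.05), with 0 of the 4 changes reversed in sign, and without mock replicate 2 it called *AGP18* alone. Over all probe sets 158 were then called higher and 21 lower without the first and 196 and 20 without the second, against 337 and 85 with all arrays. Without IAA replicate 2 the calls were *AGP3*, *CSLC04* and *TBL43*, and without IAA replicate 1 the same 4 genes were called.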

How the data were processed

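RNA of 4 seedling samples (2 IAA, 2 mock) was hybridized to Affymetrix arrays. The values deposited are linear intensity values per probe set, which the authors made with rma (background correction, quantile normalization, probe-set summary); the package version and the arrays normalized together are not given in the sources used here. The methods name rma and the values run from 7.47 to 11463, so the scale was read as linear. Quantile normalization hides a shift shared by most transcripts. Replicate numbers came from the sample titles. Replicates are independent biological samples per the methods.

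Log2 values, nothing added, were fitted with limma 3.58.1 in R 4.3.3, treatment being the only term, with p adjusted by Benjamini-Hochberg over 22746 probe sets (64 controls left out). Names came from the platform annotation, updated through RefSeq names (13513 probe sets with 1 gene, 503 with several), else from the study's BR lists (335) or auxin lists (150), used for identity only, and 8245 stayed unnamed. Probe sets in both kinds of list were counted under the BR lists. Expression values of different probe sets are not compared as levels. Fold changes are IAA over mock, or mock over IAA where a fold decrease is stated.

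The members and lists were chosen with earlier results of these data known. The text names every gene called and, per subfamily, the gene with the highest mean and the 2 largest increases and decreases (all genes where there are 4 or fewer); others are examples chosen after their values were seen, as was the background limit. Sequences of the genes were not analysed here. Alternatives covered pseudocounts, dim probe sets, normalization, variance model, call rule, naming, left-out arrays and a replicate block. The pipeline was tested on simulated data. Of the marker lists, the green tissue list had 1 gene measured of 6 (*PRK*, 5204 and 4817 after IAA, against 5687 and 5804 in mock), and the xylem and pollen lists had 0.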

Additional observations from a re-analysis of the deposited data

How the results depend on the processing

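The 4 genes called kept the sign of their change under all 14 alternatives run for them, but most of these could not reverse it. Several leave every log2 change as it was. The groups of the 4 genes did not overlap, so neither a left-out array nor an added constant could reverse a sign. The limit of 0.10 with no rule on B could also lose no call. *CSLC04* and *AGP3* were called in 11 of the 14, and *AGP15* and *AGP18* in 10. With a replicate block 0 members were called higher and 0 lower in limma (9 and 5 at an unadjusted p under 0.05). The labels give only a shared number, and do not say whether same-numbered samples were handled together. Deviations of same-numbered arrays correlated at -0.19 across probe sets. Array medians were 62.3 (IAA) and 62.2 (mock) for replicate 1, against 63.5 and 63.4 for replicate 2. Whether the block is the right model is therefore not settled. With the numbers crossed, an alternative added after the data were seen and not among the 14, 2 were called higher and 2 lower. With 64 added before log2, and again with 16 added, 2 members were called lower, *TBL25* joining, and with 64 *AGP18* was no longer called. The count of lower members was 2 at an adjusted p below 0.05 and 3 at 0.10, both with no rule on B. With the platform's names alone 1 was higher and 0 lower. Without members named through the auxin lists 0 were lower, since *AGP3* drops out by construction (also added after the data were seen). Leaving out 1 array gave 0 to 3 members higher and 0 to 1 lower, the array left alone in its group being assumed to vary like the other group. For the partner genes called higher (2), the count was 1 with 64 added, 0 with the block, 4 at 0.10 with no rule on B, 0 by the platform's names alone, and 0 to 2 with 1 array left out. The median log2 change of all members (0.052) was 0.19 without dim probe sets and -0.042 by the platform's names alone, and -0.026 to 0.051 with 1 array left out. That of the CSLC genes (0.33) was 0.24 with 64 added and 0.53 without dim probe sets, which drops *CSLC12*. That of the TBL genes (-0.084) was -0.13 without IAA replicate 1, -0.035 without IAA replicate 2, -0.022 without mock replicate 2 and -0.035 with 64 added. The cause of the other moves was not tested. Values near background, as in 11 of the 49 genes, limit any statement on those genes.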
